A study of Mus musculus with 6 samples.

Results

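The genes described here are 10 regulators of mitochondrial shape and number, chosen by known function and with earlier results of these data known. The fusion genes are Mfn1, Mfn2 and Opa1, the fission genes Dnm1l, Fis1 and Mff, and the biogenesis regulators Nrf1, Gabpa, Esrra and Pprc1. These genes are 10 of the 17831 in the deposited table, and all 10 passed the filter on low counts that left 13623 genes. They were measured by bulk RNA sequencing of lung group 2 innate lymphoid cells (ILC2s), lymphocytes without antigen receptors that make IL-5 and IL-13. There were 3 libraries from WT mice (genotype CB57BL/6 in the labels) and 3 from SIRPa KO mice (genotype SIRPalphatm1Ynliu/J), a germline knockout of the inhibitory receptor SIRPa that is not limited to ILC2s. All mice, the WT controls too, were 6 to 8 weeks old and received 0.5 µg of recombinant IL-33 into the nose on 3 days. ILC2s were sorted from the lungs on day 4 and cultured with IL-2 and IL-7, and 10 pg of RNA per library was amplified to cDNA. The comparison asks how these cells differ in their transcripts when SIRPa is missing.

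Mitochondria form a network that is remodelled all the time. Mitofusins join the outer membranes of neighbouring mitochondria and Opa1 joins the inner membranes, while Drp1, the product of Dnm1l, is recruited from the cytosol by adaptors such as Mff and Fis1 and constricts the organelle until it divides. New mitochondrial proteins are mostly encoded in the nucleus, and Nrf1, GABP and ERRα are transcription factors that act on many of these genes together with coactivators of the PGC-1 family, to which the product of Pprc1 belongs.

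Several facts of the libraries touch every value below. The deposited values summed to between 13980499 and 19051507 reads a library. The labels give WT replicates 1 and 2 a shared code, and likewise SIRPa KO replicates 2 and 3, and do not say whether libraries of a code come from separate mice. The p-values therefore measure the spread between libraries, which may be technical. WT replicate 3 stood apart: it was the lowest of all 6 libraries for 33.2% of the genes tested and for 7 of the 10 regulators, and edgeR's biological coefficient of variation came to 38.0% over the WT libraries and 15.2% over those of SIRPa KO. Without it, WT is represented by libraries of a single code. Sirpa had 149, 96 and 73 reads in the WT libraries and 48, 85 and 28 in the SIRPa KO libraries (log2 fold change -1.12, edgeR adjusted p = 0.115), and a gene total does not show which exons the reads came from. Of the 12 ILC2 markers, all were detected, with a summed level of 13679 to 15115 counts per 1000000 reads (CPM) in WT and 20111 to 20711 in SIRPa KO. Most of that sum was Il5. Of the 12 markers, 3 were called higher in SIRPa KO (Il5, Il2ra and Ptprc) and 1 lower (Thy1). Over all genes tested, 5.94% were called higher and 5.81% lower. After the length and GC correction described below, by the longest transcript, Il13 was also called higher, Icos and Rora were called lower, and Ptprc was not called. Rora was not called by the median transcript. The correction by the longest transcript called 4.13% of all genes tested higher and 4.73% lower. B cell markers summed to 216 to 478 CPM in WT and 23.1 to 84.5 in SIRPa KO. Before the correction, 5 of the 6 tested were called lower in SIRPa KO, beside 5.81% of all genes tested. T cell markers summed to 71.5 to 94.5 CPM in WT and 33.3 to 38.6 in SIRPa KO, and Cd4 was at 0 in 5 libraries. Of the 3 T cell markers tested, 2 were called lower in SIRPa KO, beside 5.81% of all genes tested. Those were Cd3g (log2 fold change -2.45, edgeR adjusted p = 0.00375) and Trbc1 (-0.96, adjusted p = 0.0228), and Cd3e was not called. After the correction by the longest transcript Cd3g was still called lower (edgeR adjusted p = 0.00191) and Trbc1 was not (adjusted p = 0.0729). Myeloid markers summed to 44.0 to 121 CPM in WT and 75.7 to 121 in SIRPa KO, epithelial and endothelial markers to 60.6 to 85.8 and 46.7 to 106.5, and mast cell and basophil markers to 18.5 to 35.9 and 1.61 to 34.5. Lyz2 led the myeloid sum and was not called. Itgam was called higher, 1 of 6 myeloid markers tested, at means of 1.92 CPM in WT and 11.2 in SIRPa KO. Pecam1 was called higher and Epcam lower, of 3 epithelial and endothelial markers tested, and no mast cell or basophil marker was called. The shares of all genes tested beside these calls are those given above. Neither Itgam nor Epcam passed after the correction by the longest transcript. The part of these other cells in the results was not tested. In bulk RNA, fewer cells of a type and less RNA per cell cannot be told apart.

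In SIRPa KO ILC2s, transcripts of the fusion genes Mfn1 and Opa1 were 1.60-fold and 1.92-fold higher than in WT (n = 3 libraries a group), and those of the fission gene Dnm1l were 1.72-fold higher. Of the biogenesis regulators, Gabpa was 2.13-fold and Pprc1 1.73-fold higher. These 5 of the 10 regulators passed edgeR's quasi-likelihood test at an adjusted p under 0.05, all of them higher, where 11.7% of all genes tested passed and 5.94% passed as higher. Mfn2, Fis1, Mff, Nrf1 and Esrra did not pass. At an unadjusted p under 0.05 there were 7 of the 10, Mfn2 and Fis1 with the 5, beside 32.0% of all genes tested. The libraries of the 2 groups did not overlap for 7 regulators, beside 42.8% of all genes tested. In Mfn1, Mfn2, Opa1, Dnm1l, Gabpa and Pprc1 every SIRPa KO library was above every WT library, which held for 21.6% of all genes tested, and in Fis1 every one was below, which held for 21.2%. The median log2 fold change of the 10 was 0.73, beside -0.03 over all genes tested. Fold changes across all genes also followed transcript length, and each call is given below with a fit corrected for length and GC content, in which 2 of the 10 passed, Pprc1 as higher and Mff as lower.

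**Figure D1:**
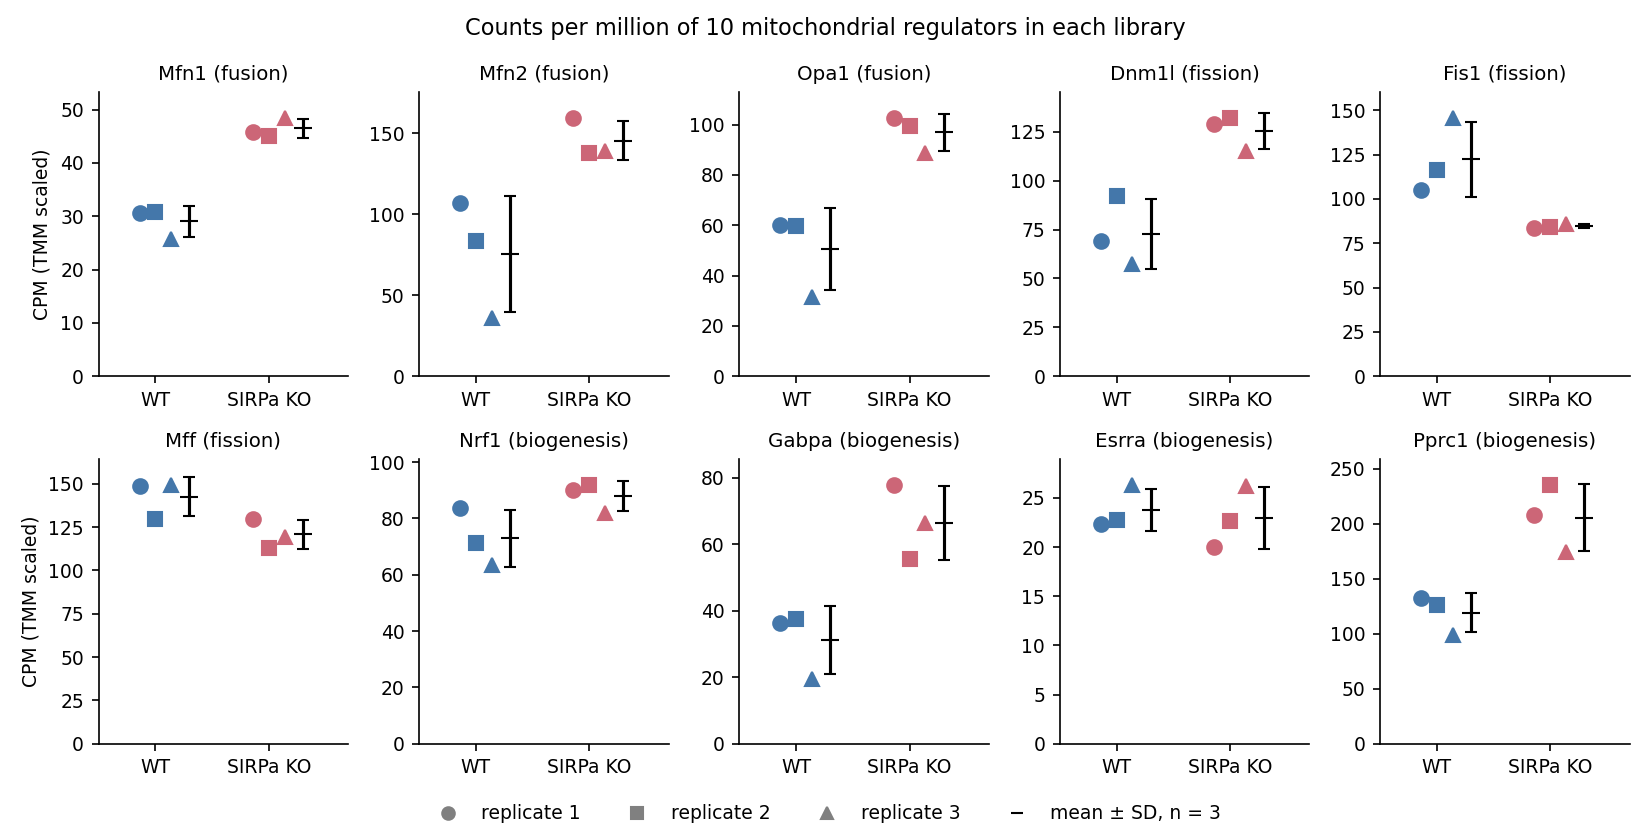
CPM of each regulator (vertical axes from 0) in the 3 WT libraries (blue) and 3 SIRPa KO libraries (red), with the replicate number as the symbol and the mean ± SD in black. The groups do not overlap for Mfn1, Mfn2, Opa1, Dnm1l, Fis1, Gabpa and Pprc1, and WT replicate 3 (blue triangle) is the lowest library for 7 of the 10 genes.

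Mfn1 and Mfn2 encode the mitofusins, GTPases of the outer membrane. Mfn1 (ENSMUSG00000027668, mm10 chromosome 3, 32529465 to 32579239, plus strand) was at 30.6, 30.9 and 25.7 CPM in WT replicates 1 to 3 and at 45.8, 45.1 and 48.4 CPM in SIRPa KO replicates 1 to 3. Every SIRPa KO library was above every WT library, and both groups were tight. The means were 29.1 ± 2.93 and 46.4 ± 1.76 CPM (SD, n = 3), and the log2 fold change of 0.68 (SE 0.15) passed the edgeR test with an adjusted p of 0.0309. After the length and GC correction it was 0.31 with an adjusted p of 0.163 in edgeR. The RefSeq promoter window of Mfn1 (250 bases before to 50 after the transcript start, GRCm38.p6) holds the core GABP motif, CCGGAAGT, which is shown in capitals because the gene of the DNA-binding subunit of GABP, Gabpa, is among the genes compared. This stretch is at chr3:32529427-32529456 on the plus strand, with the motif centred 40 bases before the start.
Mfn1: gatccgaagcgCCGGAAGTagccgccccta

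Mfn2 (ENSMUSG00000029020, chromosome 4, 147873599 to 147904704, minus strand) was at 107, 83.7 and 36.0 CPM in WT and at 159, 138 and 139 CPM in SIRPa KO. The groups did not overlap, but WT replicate 3 was far below the other WT libraries, and the WT values spread over a 2.96-fold range against 1.16-fold in SIRPa KO. Its difference, 0.95 on the log2 scale (SE 0.34), did not pass the edgeR test (adjusted p = 0.104). Without WT replicate 3 the difference was smaller, 0.62 (SE 0.13), and passed with an edgeR adjusted p of 0.0205. After the length and GC correction it was 0.85, with an edgeR adjusted p of 0.0928. The ratio of Mfn1 to Mfn2 reads within a library was 0.288, 0.369 and 0.715 in WT and 0.287, 0.328 and 0.348 in SIRPa KO. Here too WT replicate 3 was the library apart, and the groups overlapped (log2 difference -0.40, exact permutation test, two-sided, p = 0.4, where the smallest p that 3 against 3 allows is 0.1). Without WT replicate 3 the log2 difference of this ratio was -0.03, without WT replicate 1 it was -0.68, and after the correction it was -0.62.

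Opa1 encodes the GTPase that joins inner membranes and keeps cristae closed. Opa1 (ENSMUSG00000038084, chromosome 16, 29579334 to 29654884, plus strand) was at 60.0, 59.7 and 31.6 CPM in WT and at 103, 99.3 and 88.8 CPM in SIRPa KO. All 3 SIRPa KO libraries lay above the WT libraries, of which replicate 3 was lowest. The log2 fold change was 0.94 (SE 0.24) with an edgeR adjusted p of 0.0457, and 0.47 with an adjusted p of 0.0785 after the correction. Without WT replicate 3 it was 0.70, with an edgeR adjusted p of 0.00658. The Opa1 promoter window is the only one of the 16 windows of the 10 genes with the NRF1 motif, GCGCA and GCGC with any base between them, centred 54 bases before the start, at chr16:29579265-29579294 on the plus strand.
Opa1: gtggctccccGCGCATGCGCatgtcatccg

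Dnm1l encodes Drp1, the GTPase that divides mitochondria. Dnm1l (ENSMUSG00000022789, chromosome 16, 16312230 to 16358959, minus strand) was at 69.2, 92.4 and 57.3 CPM in WT and at 129, 132 and 115 CPM in SIRPa KO. The lowest SIRPa KO library was above the highest WT library, WT replicate 2. Its log2 fold change of 0.78 (SE 0.18) passed the edgeR test with an adjusted p of 0.0365, and was 0.42 with an adjusted p of 0.0861 after the correction. Reads of Dnm1l are uncertain in part, since the pseudogene Gm13719, which is not in the table used here, matches 34.0% of its longest transcript at 91.24% identity. The ratio of Opa1 to Dnm1l reads was 0.867, 0.645 and 0.552 in WT and 0.797, 0.751 and 0.771 in SIRPa KO. The SIRPa KO ratios lay inside the range of the WT ratios (log2 difference 0.19, exact permutation test, two-sided, p = 0.4), and the SD of the log2 ratio was 0.33 in WT and 0.04 in SIRPa KO. Leaving out WT replicate 3 gave a log2 difference of 0.05 and leaving out WT replicate 1 gave 0.37, and the correction gave 0.05.

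Fis1 and Mff encode outer membrane adaptors for Drp1, and both had values opposite in sign to Dnm1l. Fis1 (ENSMUSG00000019054, chromosome 5, 136953275 to 136966234, plus strand) was at 105, 116 and 146 CPM in WT and at 83.4, 84.4 and 85.8 CPM in SIRPa KO. It was the only regulator with every SIRPa KO library below every WT library, and the SIRPa KO libraries were within 1.03-fold of each other. At -0.53 (SE 0.15), its log2 fold change missed the edgeR threshold with an adjusted p of 0.0534. Fis1 has the shortest transcript of the 10 genes, and after the length and GC correction its difference was 0.02 (SE 0.10, edgeR adjusted p = 0.922), while with median transcripts in the correction it was -0.26 (adjusted p = 0.197). Both of its RefSeq promoter windows hold the GABP motif, centred 14 bases before the upstream start (chr5:136953246-136953275) and 23 bases after the downstream start (chr5:136962085-136962114), both on the plus strand.
Fis1, upstream start: ggaggcaccacCCGGAAGTtcaggcttccc
Fis1, downstream start: acaggtcgatgCCGGAAGTgcctctccgcc

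Mff (ENSMUSG00000026150, chromosome 1, 82724890 to 82752394, plus strand) was at 149, 129.6 and 149 CPM in WT and at 129.8, 113 and 119 CPM in SIRPa KO. The groups met at WT replicate 2 and SIRPa KO replicate 1, which were nearly equal. A log2 fold change of -0.24 (SE 0.12) did not pass the edgeR test, with an adjusted p of 0.203. After the correction by the longest transcript, which is 3918 bases for Mff, the difference was -0.64 (SE 0.16) with an edgeR adjusted p of 0.0466. Its median coding transcript is 1358 bases, and with median transcripts in the correction the difference was -0.40 with an edgeR adjusted p of 0.0731, so the call depended on which annotated transcript was taken. The ratio of Mff to Fis1 reads was 1.42, 1.11 and 1.02 in WT and 1.56, 1.34 and 1.39 in SIRPa KO. These ranges overlapped (log2 difference 0.28, exact permutation test, two-sided, p = 0.3). Without WT replicate 3 the difference was 0.18. After the correction by the longest transcript the sign of the difference turned, to -0.65. The same exact test then gave p = 0.1, the smallest possible, and 0.2 after adjustment over the 4 ratios compared.

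Nrf1 here is nuclear respiratory factor 1, a transcription factor for genes of the respiratory chain and of mitochondrial DNA upkeep. Nrf1 (ENSMUSG00000058440, chromosome 6, 30047988 to 30153458, plus strand) was at 83.7, 71.4 and 63.6 CPM in WT and at 90.1, 91.8 and 81.8 CPM in SIRPa KO. SIRPa KO replicate 3 lay below WT replicate 1, so the ranges crossed. With a log2 fold change of 0.27 (SE 0.14), Nrf1 did not pass the edgeR test (adjusted p = 0.230), and after the correction it was -0.05 (SE 0.11, adjusted p = 0.825), or 0.28 (adjusted p = 0.208) with median transcripts.

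Gabpa encodes the DNA-binding subunit of GABP, also known as nuclear respiratory factor 2, and had the largest log2 fold change of the 10 genes before the correction. Gabpa (ENSMUSG00000008976, chromosome 16, 84834925 to 84863779, plus strand) was at 36.3, 37.6 and 19.5 CPM in WT and at 77.7, 55.4 and 66.3 CPM in SIRPa KO. Every SIRPa KO library was above every WT library, and WT replicate 3 was again the lowest. The log2 fold change was 1.09 (SE 0.27, edgeR adjusted p = 0.0393) with all libraries and 0.85 (adjusted p = 0.0154) without WT replicate 3. After the correction it was 0.67 with an edgeR adjusted p of 0.0599, and 0.81 with an adjusted p of 0.0488 where median transcripts were used. Exons of Gabpa share 397 bases, 6.98% of its exonic bases, with Atp5j on the opposite strand, and whether the counting used strand is not given in the sources used here. Atp5j had a log2 fold change of -0.43 (edgeR adjusted p = 0.0409), which was 0.003 (adjusted p = 0.989) after the correction by the longest transcript and -0.60 (adjusted p = 0.0242) with median transcripts. The ratio of Nrf1 to Gabpa reads was 2.31, 1.90 and 3.27 in WT and 1.16, 1.66 and 1.23 in SIRPa KO. All 3 SIRPa KO ratios were below the WT ratios (log2 difference -0.86), and the exact permutation test, two-sided, gave p = 0.1, the smallest possible, and 0.4 after adjustment over the 4 ratios compared. Leaving out WT replicate 3 gave a log2 difference of -0.65, and the correction gave -0.72.

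Esrra encodes ERRα, an orphan nuclear receptor that works with PGC-1 coactivators on genes of oxidative metabolism. Esrra (ENSMUSG00000024955, chromosome 19, 6910977 to 6921813, minus strand) was at 22.3, 22.8 and 26.3 CPM in WT and at 20.0, 22.7 and 26.2 CPM in SIRPa KO. The groups covered nearly the same range, and the log2 fold change was -0.05 (SE 0.18, edgeR adjusted p = 0.871). Its exons share 73 bases with Trmt112 on the opposite strand.

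Pprc1 encodes PRC, a coactivator of the PGC-1 family that responds to growth signals. Pprc1 (ENSMUSG00000055491, chromosome 19, 46044886 to 46072915, plus strand) was at 133, 126 and 99.2 CPM in WT and at 208, 235 and 174 CPM in SIRPa KO. The lowest SIRPa KO library was well above the highest WT library. Its log2 fold change of 0.79 (SE 0.16) had an edgeR adjusted p of 0.0257. It was the only regulator called higher both with and without the correction by the longest transcript, after which it was 0.64 (SE 0.12, edgeR adjusted p = 0.0223). On the corrected log2 CPM scale, Pprc1 was at 6.99, 6.94 and 6.96 in WT and at 7.63, 7.79 and 7.36 in SIRPa KO, so WT replicate 3 no longer stood below the other WT libraries. Exons of Pprc1 share 177 bases with Ldb1 on the opposite strand, which had a log2 fold change of -0.52 (edgeR adjusted p = 0.0891).

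**Figure D2:**
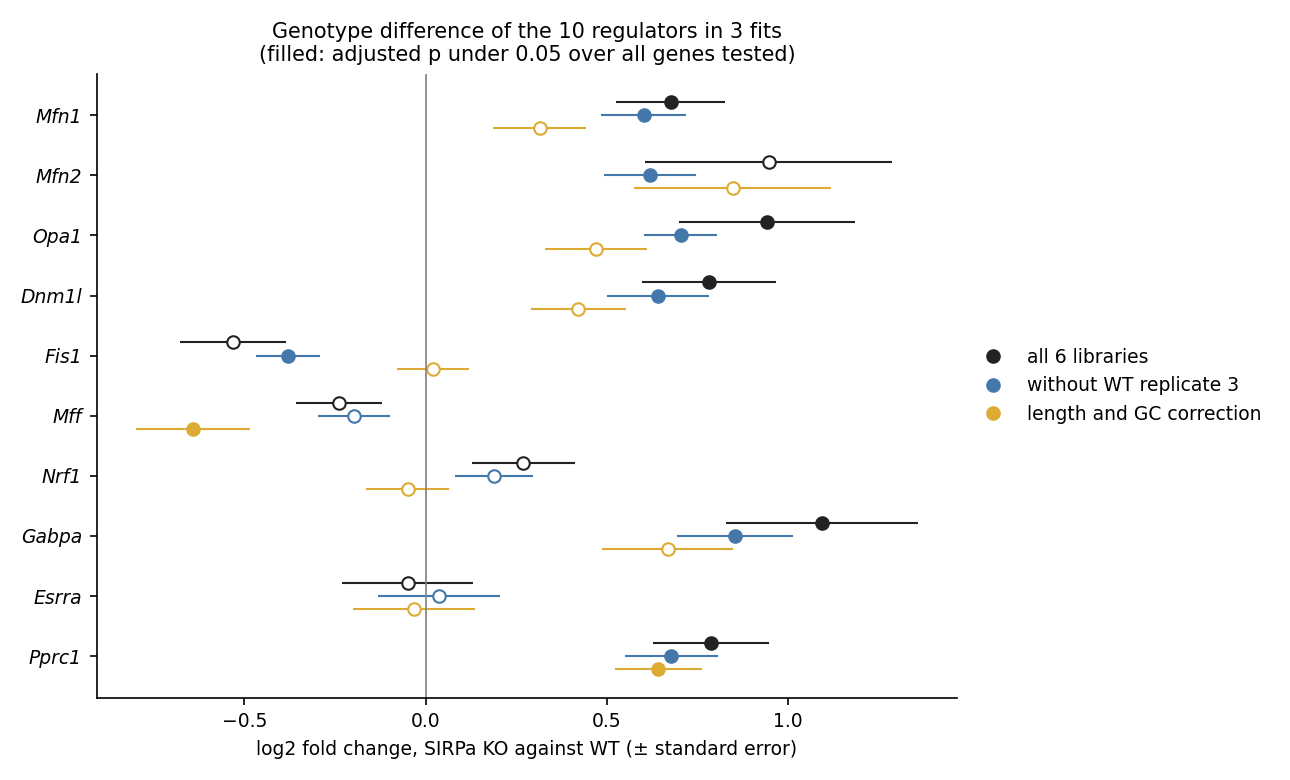
Log2 fold change of SIRPa KO against WT (horizontal axis, bars are standard errors) for each regulator with all 6 libraries, without WT replicate 3, and after the length and GC correction, with filled points for an adjusted p under 0.05 over all genes tested. Pprc1 is filled in all 3 fits, while Mfn1, Opa1, Dnm1l and Gabpa are open after the correction.

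Transcript length moved with these differences. Genes whose mean level was 3 or more in log2 CPM were split by length into deciles, and the median log2 fold change ran from -0.55 in the decile with the shortest transcripts to 0.47 in that with the longest. The longest annotated transcript was 948 bases for Fis1, 2489 for Esrra and between 3918 and 6230 for the other 8 regulators. Set against genes of like length, Mfn2, Opa1, Dnm1l and Gabpa were at the 94.4, 87.3, 87.4 and 95.4 percentiles of their length decile, Mfn1 at 80.8 and Pprc1 at 79.6. These 6 were above most genes of their length, whereas Fis1 (52.6), Nrf1 (55.2) and Esrra (45.6) were near the middle and Mff was at 17.5. The correction brought the median of the 10 from 0.73 to 0.37, and 7 of the 10 had no overlap between groups, beside 35.2% of all genes tested. These were not the same 7 as before it, since Fis1 now overlapped and Mff did not. With it, 2 of the 10 passed the test, beside 8.86% of all genes tested, of which 4.13% were higher and 4.73% lower. With median transcripts in the correction, the median of the 10 was 0.46, and Gabpa and Pprc1 passed, both higher, beside 9.07% of all genes tested. The part of transcript length in the differences was not tested beyond this correction.

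**Figure D3:**
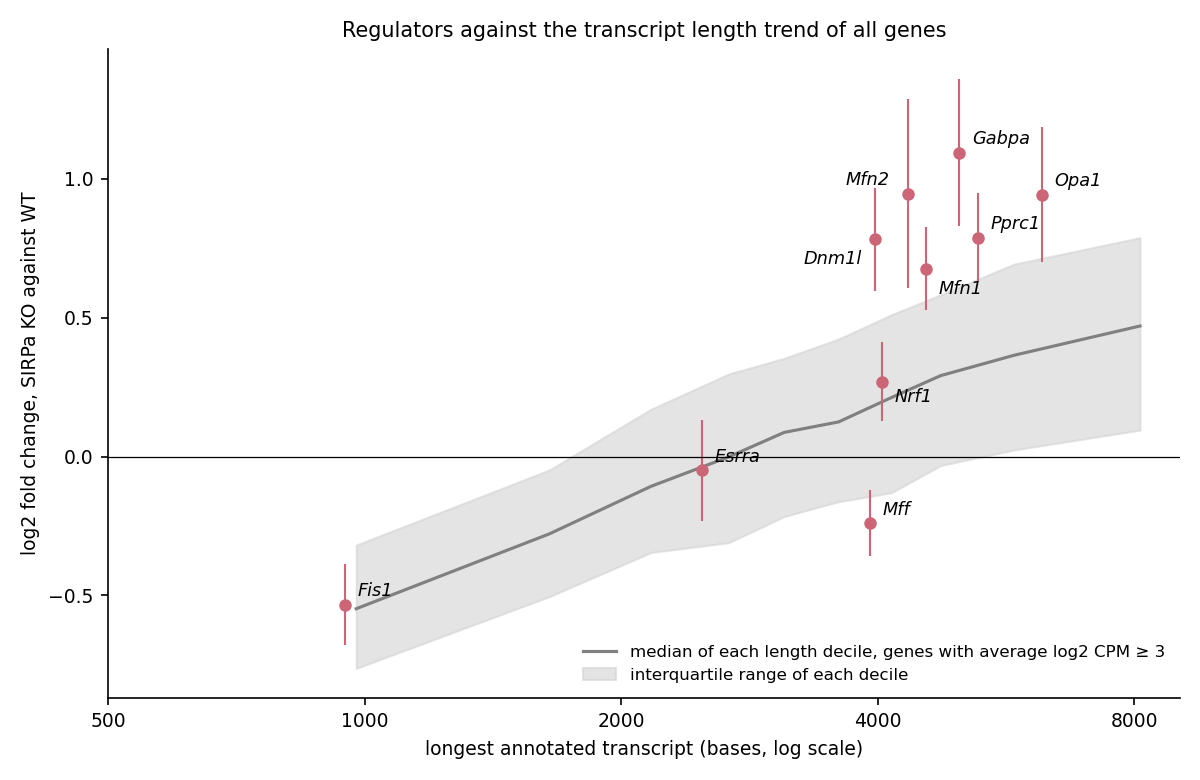
Log2 fold change of the 10 regulators (red, with standard errors) against the length of the longest annotated transcript on a log scale, with the median of each length decile of all genes (grey line) and its interquartile range (grey band). Fis1, Nrf1 and Esrra lie by the line, Mff below the band, and the other 6 above the band.

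The calls also changed with the libraries in the fit. Without WT replicate 3, 7 of the 10 passed the edgeR test, the 5 above with Mfn2 higher and Fis1 lower (log2 fold change -0.38, adjusted p = 0.0293), beside 18.4% of all genes tested, 10.4% higher and 8.07% lower. Without WT replicate 1, Pprc1 and Fis1 passed, beside 7.89% of all genes tested. Without WT replicate 2, the 5 called with all libraries passed, beside 16.3%. With both the correction and WT replicate 3 left out, Mfn2 and Pprc1 passed as higher and Mff as lower, beside 11.5%. Leaving out SIRPa KO replicate 1, 2 or 3 left none of the 10 past the threshold, with 16 to 17 genes called in the whole table. At an unadjusted p under 0.05 there were 6, 7 and 7 of the 10 in these fits, beside 21.0%, 20.7% and 22.5% of all genes tested. With the libraries of a shared code summed, which leaves 2 against 2, none passed in edgeR and 7 had an unadjusted p under 0.05, where 0.0686% of all genes passed and 23.0% had an unadjusted p under 0.05. DESeq2 on all 6 libraries called 7 of the 10, Mfn2 and Fis1 with the 5, beside 22.6% of all genes tested.

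Levels were compared between genes only per kilobase of the longest transcript, and the order rests on that choice. Median coding transcripts are 564 bases for Pprc1, 786 for Fis1 and 1358 for Mff, and the order with those lengths was not tested. In WT, Fis1 was highest with 129 ± 22.2 CPM per kilobase (SD, n = 3), followed by Mff with 36.4 ± 2.84 and Pprc1 with 22.7 ± 3.36. Neither of these steps had overlapping libraries. Dnm1l (18.4), Nrf1 (18.0) and Mfn2 (17.4) came next, then Esrra (9.56), Opa1 (8.09), Mfn1 (6.37) and Gabpa (6.24), and from Pprc1 downwards each gene's libraries overlapped those of the next. In SIRPa KO, Fis1 was still first with 89.2 ± 1.26 CPM per kilobase, ahead of Pprc1 (39.2), Mfn2 (33.5), Dnm1l (31.6) and Mff (30.8). Mff was thus next to Fis1 in WT and in the fifth place in SIRPa KO, where its libraries overlapped those of Dnm1l. Nrf1 (21.7), Opa1 (15.6), Gabpa (13.3), Mfn1 (10.2) and Esrra (9.23) followed.

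Likeness of pattern was measured as the root mean square difference of log2 CPM over the 6 libraries, each gene centred on its own mean, among 9145 genes. The nearest gene to Gabpa was Tnfsf8 (0.03), to Mfn2 Ccne2 (0.04), to Opa1 Ccdc186 (0.05), to Mfn1 Rbm43 (0.05), to Dnm1l Bms1 (0.05) and to Pprc1 Atf7 (0.06). For Fis1 it was Tmem222, for Mff Tex261, for Nrf1 Mindy1 and for Esrra Hinfp, at 0.03 to 0.04. Among the 10 regulators, Opa1 and Gabpa were each other's nearest (0.16), as were Dnm1l and Pprc1 (0.16) and Mff and Esrra (0.19), and Mfn2 was nearest to Opa1 (0.20). Even so, 47 genes lay nearer to Gabpa than Opa1 did, and 222 lay nearer to Opa1 than Gabpa did. For Dnm1l 321 genes lay nearer than Pprc1, and for Pprc1 192 lay nearer than Dnm1l. For Mff 1864 genes lay nearer than Esrra, and for Esrra 1407 lay nearer than Mff. For Mfn2 83 genes lay nearer than Opa1, and 2319 lay nearer to Nrf1 than Mfn1, its nearest regulator, at 0.23.

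The other genes of these pathways were read from the same fit, in which 5.94% of all genes tested were called higher and 5.81% lower. Of 11 fusion partners tested, 2 were higher and none lower, with a median log2 fold change of 0.16. They were Miga1 (log2 fold change 1.25, edgeR adjusted p = 0.0267), which encodes mitoguardin 1, an outer membrane protein that promotes fusion, and Yme1l1 (0.59, adjusted p = 0.0350), a protease that cleaves Opa1. Neither passed after the correction by the longest or by the median transcript. Of 14 fission partners, 2 were higher and none lower, with a median of 0.17, beside the same shares of all genes. Both also passed after the correction by the longest transcript, and with median transcripts Senp5 passed and Akap1 did not. Senp5, a protease that removes SUMO from proteins including Drp1, was at 32.8, 30.4 and 17.6 CPM in WT and 67.8, 78.7 and 62.5 CPM in SIRPa KO. That is a log2 fold change of 1.37 (edgeR adjusted p = 0.0185) before the correction and 0.91 (adjusted p = 0.0184) after it. Akap1, an outer membrane anchor for protein kinase A, had a log2 fold change of 0.69 (edgeR adjusted p = 0.0314) before the correction, 0.60 (adjusted p = 0.0306) after it and 0.46 (adjusted p = 0.0846) with median transcripts, where Mtfr1l, named after its values were seen, passed at 0.72 (adjusted p = 0.0177).

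Among 11 genes of cristae and MICOS, the complex that holds the necks of cristae, 1 was higher and 2 were lower, with a median of -0.13, beside 5.94% higher and 5.81% lower over all genes tested. The median was 0.02 without WT replicate 3, with 3 called higher and 2 lower. Immt, the core MICOS subunit mitofilin, was higher (log2 fold change 0.65, edgeR adjusted p = 0.0351), whereas the small subunits Micos10 (-0.81, adjusted p = 0.0267) and Micos13 (-0.76, adjusted p = 0.0313) were lower. After the correction by the longest transcript, Micos10 alone passed (-0.78, edgeR adjusted p = 0.0275). With median transcripts 4 genes of the list passed, Immt (0.47) and Dnajc11 (0.61) as higher and Micos10 (-1.02) and Micos13 (-0.65) as lower, Dnajc11 being named after its values were seen. Of 12 biogenesis coregulators tested, none passed in edgeR, and the median was 0.46. There were 4 at an unadjusted p under 0.05, beside 32.0% of all genes tested, and 2 called by DESeq2, beside 22.6%. The smallest p-values belonged to Myc (log2 fold change 0.37, edgeR adjusted p = 0.0532) and Hcfc1, a cofactor that binds GABP (0.97, adjusted p = 0.0536), and both passed after the correction by the longest transcript, at 0.50 and 0.71, where the list's median was -0.01. With median transcripts Myc passed (0.42, edgeR adjusted p = 0.0353), Hcfc1 did not (0.67, adjusted p = 0.0521), and the list's median was 0.42. Ppargc1a, which encodes PGC-1α, had no read in the WT libraries or in SIRPa KO replicates 1 and 2. It had 12 reads in SIRPa KO replicate 3 and was not tested. Gabpb1 and Gabpb2, whose products partner Gabpa, had log2 fold changes of 0.26 and 0.46 and did not pass (edgeR adjusted p = 0.211 and 0.205).

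The 19 genes taken as targets of NRF1 and GABP had 1 member higher and 9 lower, with a median of -0.56, beside 5.94% higher and 5.81% lower over all genes tested. The higher one was Tomm70 (log2 fold change 1.07, edgeR adjusted p = 0.0127), a receptor of the outer membrane import complex. All 9 lower ones were subunits of cytochrome c oxidase, the last complex of the electron transport chain, led by Cox7a2 (-0.91, adjusted p = 0.0158), Cox7c (-0.84), Cox6c (-0.82) and Cox6a1 (-0.82). Many of these subunits have very short transcripts. They also make up much of the list, so its median and its calls lean on them. Outside them, Polrmt was at 0.62, Tfb1m at 0.23, Tfb2m at 0.19, Alas1 at 0.13, Tomm34 at 0.11 and Tomm20 at 0.02. Cycs was at -0.23, and none of these was called. After the correction by the longest transcript 4 genes of the list were lower, 1 was higher and the median was 0.00. The 4 included Cox7c (-0.52) and Cox6c (-1.02). Cox7a2 (-0.33, edgeR adjusted p = 0.112) and Cox6a1 (0.07, adjusted p = 0.687) were then not called. With median transcripts 6 were lower, 1 was higher and the median was -0.33. Among the 6 were Cox7a2, Cox7c and Cox6c, and Cox6a1 was not called (-0.52, edgeR adjusted p = 0.0793). The uncorrected median was -0.30 without WT replicate 3, with 10 lower and 1 higher. Tfam, the packaging factor of mitochondrial DNA, had a log2 fold change of 0.35 (edgeR adjusted p = 0.102).

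**Figure D4:**
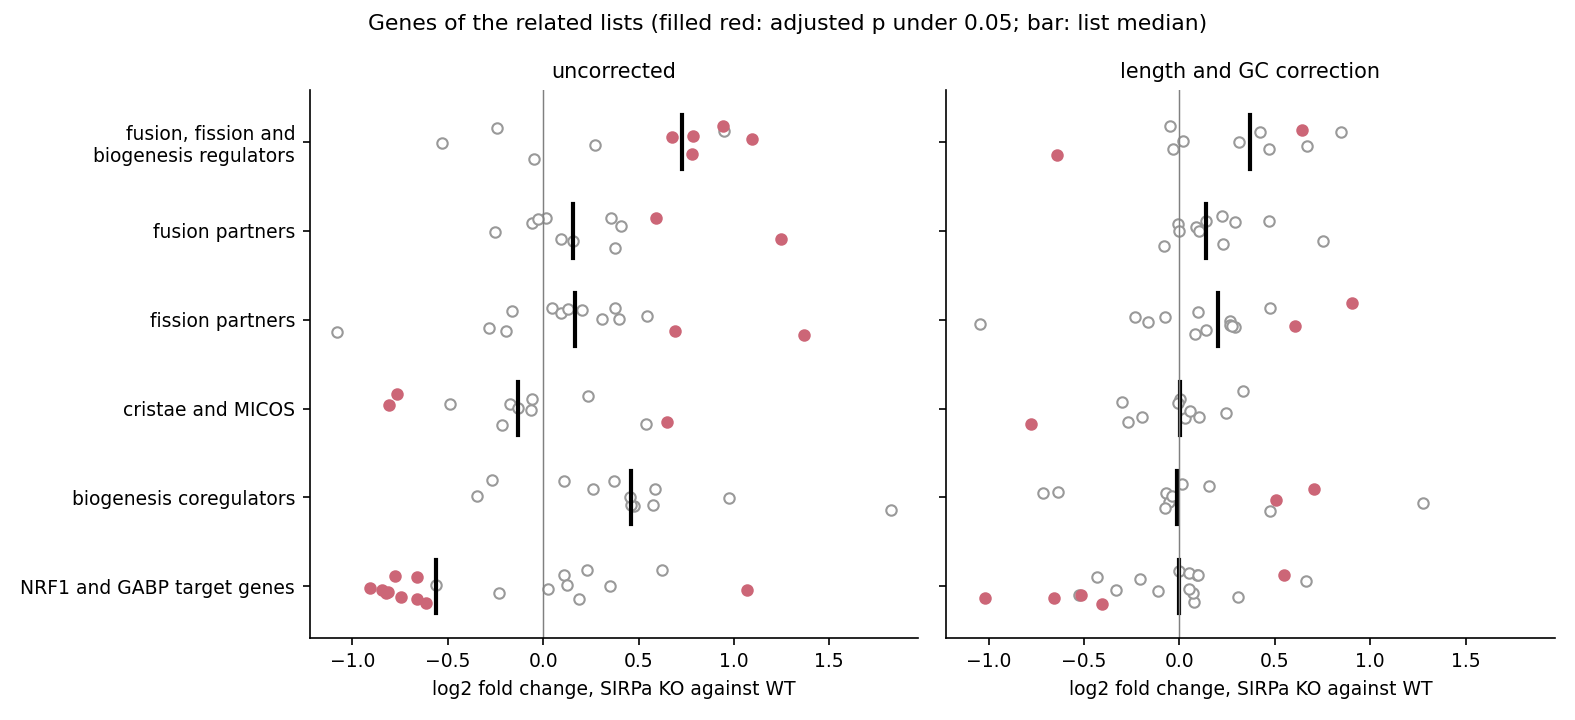
Log2 fold change of each tested gene (horizontal axis) in the 10 regulators and 5 related lists, before (left) and after (right) the length and GC correction, with filled red points for an adjusted p under 0.05 and a black bar at the list median. The median of the 10 regulators is 0.73 on the left and 0.37 on the right, and that of the NRF1 and GABP target genes is -0.56 on the left.

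Promoter windows were searched on both strands for the letters of 3 motifs. The GABP motif CCGGAAGT was in 3 of the 16 windows of the 10 genes, the sequences shown for Mfn1 and Fis1. It was in 8.42% of the 12102 windows of tested genes and 3.89% of all 32851 windows. Fis1 gave 2 of those 3 windows, so only Mfn1 and Fis1 of the 10 genes held it. The NRF1 motif was in 1 of the 16, that of Opa1, beside 10.3% and 4.60%. Counted by gene, 9501 tested genes had a window, and 9.75% of them held the GABP motif and 12.2% the NRF1 motif. The ESRRA motif TCAAGGTCA was in none of the 16, beside 0.273% of the windows of tested genes. A match describes letters in a window and not binding.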

How the data were processed

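The authors worked in Partek, with STAR as the aligner, mm10 as the genome and GENCODE M21 as the annotation. The submitters' processing notes name Partek 10.0 and STAR 2.7.8. They deposited estimated counts per gene, not scaled for library size. The step that made the counts, and whether it used strand, is not given in the sources used here. Of the gene columns, 122 were recorded singly, and the other 17709 hold the same unit.

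Counts were rounded to whole numbers, filtered with filterByExpr (at least 10 reads, 15 in total), normalized by TMM, and compared by genotype in edgeR's quasi-likelihood test, p-values being adjusted by Benjamini-Hochberg over 13623 genes. Each standard error was taken from the F statistic. R 4.3.3, edgeR 4.0.16, limma 3.58.1, DESeq2 1.42.0, BLAST 2.17.0 and matplotlib 3.10.9 were used, and the scripts were tested on simulated data. The correction fitted splines with 5 degrees of freedom for transcript length and GC content to each library over 9032 genes outside the lists, and entered them as an offset. Symbols matched GENCODE M21 directly for 17400 genes and through synonyms for 190. Genes matching a regulator at 90% identity or more over at least 200 bases were sought as copies. Sequences came from RefSeq (GRCm38.p6).

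All 10 regulators were named. From each related list, up to 5 genes with an adjusted p under 0.05 were named by size of change, or the 2 with the smallest p. Tfam, the other uncalled target genes outside cytochrome c oxidase, Ppargc1a, Gabpb1, Gabpb2, single markers and genes that overlap a regulator were named after their values were seen. The regulators and lists were chosen with earlier results of these data known. Gdap1, Esrrb, Esrrg, Ppara and Perm1 were not analysed here. Tried as alternatives were DESeq2, RLE and upper quartile scaling, 2 filters, a replicate block, each library left out, libraries of a shared code summed, and the correction. Correction with median transcripts, correction without WT replicate 3, and ratios after correction were chosen after seeing the data.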

Additional observations from a re-analysis of the deposited data

How the results depend on the processing

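Of all genes, edgeR called 1600, DESeq2 3084 and the fit with libraries of a shared code summed 10, and leaving out a library gave 16 to 2606. Of the 10 regulators, 5 were called, beside 11.7% of all genes tested. With no filter on low counts there were 3, beside 1151 of 17831 genes, and with shared codes summed 0, beside 0.0686%. After the length and GC correction there were 2 by the longest transcript (8.86% of all genes) or the median transcript (9.07%). The correction without WT replicate 3 gave 3, beside 11.5%, and leaving out a library gave 0 to 7. In the 5 related lists, with 11, 14, 11, 12 and 19 genes tested, 17 genes were called, beside 11.7% of all genes tested. With shared codes summed 0 were called, beside 0.0686%, and after the correction by the longest transcript 10, beside 8.86%. When a library was left out 0 to 23 were called, beside the 16 to 2606 of all genes given above.

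With no filter, Opa1 (log2 fold change 0.96) and Gabpa (1.11) were not called. DESeq2 called Mfn2 (0.96) and Fis1 (-0.53), and upper quartile scaling, under which the median over all genes was -0.13, called Fis1 (-0.64) and called 703 genes higher of 1713. With shared codes summed the log2 fold changes of Mfn1, Opa1, Dnm1l, Gabpa and Pprc1 were 0.72, 1.12, 0.90, 1.30 and 0.87, none of them called. After the correction by the longest transcript those of Mfn1, Opa1, Dnm1l and Gabpa were 0.31, 0.47, 0.42 and 0.67 and not called, Mff was called at -0.64, and Fis1 (0.020) and Nrf1 (-0.050) changed sign, as did the ratio of Mff to Fis1 (-0.65). With median transcripts Mfn1 (0.51), Opa1 (0.59) and Dnm1l (0.40) were not called, Esrra was at 0.25, and Fis1 (-0.26) and Nrf1 (0.28) kept their sign. After the correction without WT replicate 3, Mfn1 (0.38), Opa1 (0.35), Dnm1l (0.38) and Gabpa (0.53) were not called, Mfn2 (0.56) and Mff (-0.48) were called, and Nrf1 (-0.015) and Esrra (0.051) changed sign. The cause of these changes was not tested.

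When each library was left out in turn, the log2 fold change ranged from 0.60 to 0.72 for Mfn1, 0.62 to 1.29 for Mfn2, 0.70 to 1.09 for Opa1, 0.64 to 0.99 for Dnm1l, -0.63 to -0.38 for Fis1, 0.85 to 1.25 for Gabpa, -0.15 to 0.05 for Esrra (0.036 without WT replicate 3 and 0.046 without SIRPa KO replicate 1) and 0.68 to 0.90 for Pprc1.

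The labels do not state that replicate numbers pair the samples. The deviations of same-numbered libraries correlated at -0.14, 0.18 and 0.03, and those of libraries with unlike numbers at -0.26 to 0.23. With 3 libraries a group, these values cannot settle whether samples were paired. With the replicate block, 1118 genes and 4 of the 10 regulators were called, and Mfn1 (0.68) was not (edgeR adjusted p = 0.0666).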
